A study of Mus musculus with 12 samples.

Results

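Levels of 9 activity-regulated genes were followed in hippocampal RNA from 12 mice. The genes were Egr1, Egr2, Egr3, Egr4, Nr4a1, Nr4a2, Nr4a3, Npas4 and Arc. They were taken by symbol through the GENCODE M21 annotation of the GRCm38 mouse genome, and each matched 1 protein-coding gene among the 21532 genes of the count table. All 9 were among the 18382 genes that passed the filter on low counts. The mice were C57BL/6 animals labelled wild-type, with no other allele named, and all had an intraperitoneal injection. Of the 4 groups, the first had stigmasterol and was dissected 6 h later, the second vehicle and 6 h, the third stigmasterol and 1 h, and the fourth vehicle and 1 h, with 3 mice and 3 libraries in each. Stigmasterol is a plant sterol. The labels are at odds on the compound: for all 12 samples, vehicle ones included, the treatment field gives 100 mg/kg of beta-sitosterol, another plant sterol. Agent field, descriptions and series title all give stigmasterol, the name used here. Sex, age, clock time of the injection and the make-up of the vehicle were not stated in the labels, and the series' design text does not settle whether a library is 1 mouse or more than 1, although each sample is described as a mouse.

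These genes are immediate early genes: their transcription starts within minutes of calcium entry or growth factor signalling, without new protein being made first. In hippocampal neurons they are known to respond to seizures, to exploration of a new place and to learning, and a share of granule and pyramidal cells carries most of their RNA at any time. Egr1 to Egr4 encode zinc finger transcription factors that bind GC-rich sites, Nr4a1 to Nr4a3 encode orphan nuclear receptors that act without a known ligand, Npas4 encodes a basic helix-loop-helix PAS factor tied closely to calcium entry, and Arc encodes a cytoskeleton-associated protein that promotes the removal of AMPA receptors from synapses. In whole tissue, fewer cells of a type and less RNA per cell cannot be told apart.

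Libraries held between 27613253 and 42043875 counts, the sum over genes. Values are given below in CPM, counts scaled to a common library total with TMM factors. Markers of dentate granule cells, of CA1 and of CA3 and CA2 pyramidal cells were detected in every library, and 0 of the tested markers on any list had a count of 0 in any library. Stigmasterol replicate 8 at 1 h stood apart: its 12 tested striatum markers summed to 803 CPM, against 447 to 465 CPM in the other stigmasterol libraries at 1 h and 431 to 450 CPM in the vehicle libraries at 1 h. Its 12 cortical layer markers summed to 416 CPM, against 280 to 323 CPM in the other 11 libraries. The 15 choroid plexus markers summed to 229 CPM in vehicle replicate 4 at 1 h, to 259 CPM in vehicle replicate 9 at 1 h and to between 780 and 7209 CPM in the other 10 libraries.

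Upstream sequence is shown first, because the cAMP response element (CRE), bound by CREB, and the CArG box, bound by serum response factor, are the elements through which neuronal activity is known to act on genes of this kind. The RefSeq promoter table on build GRCm38.p6 held entries for 6 of the 9 members: Egr2, with 5 annotated starts, and Egr4, Nr4a1, Nr4a2, Nr4a3 and Npas4, with 1 each. The 250 bases before each start were searched on both strands for the CRE core TGACG, for the whole CRE TGACGTCA, which contains the core, and for the CArG box. Capitals mark cores, which read CGTCA where the motif lies on the other strand, and the CArG box. Whole windows are printed for Egr4, the member with the largest relative difference at 1 h in the fit of all libraries, and for Nr4a1 and Nr4a2, which each have 4 cores. Short stretches that hold a pair of motifs are printed for Egr2 (entry 3 of its starts), Nr4a3 and Npas4, whose windows reach or lie close to annotated exons of other transcripts. The Egr4 window is chr6:85513590-85513839 on the minus strand, the Nr4a1 window chr15:101266596-101266845 on the plus strand and the Nr4a2 window chr2:57124004-57124253 on the minus strand. The Egr2 stretch is chr10:67537794-67537821 on the plus strand, the Nr4a3 stretch chr4:48045071-48045099 on the plus strand and the Npas4 stretch chr19:4990133-4990153 on the minus strand.
Egr4: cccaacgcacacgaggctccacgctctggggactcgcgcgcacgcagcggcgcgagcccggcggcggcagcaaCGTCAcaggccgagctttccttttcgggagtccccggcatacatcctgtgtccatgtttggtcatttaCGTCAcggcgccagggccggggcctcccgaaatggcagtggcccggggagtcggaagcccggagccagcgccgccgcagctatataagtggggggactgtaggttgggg
Nr4a1: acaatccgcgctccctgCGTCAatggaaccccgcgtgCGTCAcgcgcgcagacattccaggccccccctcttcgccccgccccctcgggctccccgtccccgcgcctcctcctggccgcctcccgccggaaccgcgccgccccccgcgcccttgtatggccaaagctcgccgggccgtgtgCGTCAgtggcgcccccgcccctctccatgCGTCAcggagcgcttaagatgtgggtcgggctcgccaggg
Nr4a2: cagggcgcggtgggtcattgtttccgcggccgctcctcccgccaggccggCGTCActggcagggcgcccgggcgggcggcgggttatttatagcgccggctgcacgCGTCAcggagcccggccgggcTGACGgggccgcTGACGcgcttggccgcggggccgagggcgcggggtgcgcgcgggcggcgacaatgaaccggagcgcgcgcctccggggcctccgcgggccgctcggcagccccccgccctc
Egr2: agtCCATATATGGgcagcgaCGTCAcgg
Nr4a3: gggTGACGtagcgtcccatgtCGTCAcat
Npas4: cgaCGTCAcgggaTGACGtcg

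The core was found in at least 1 window of each of these 6 genes. Egr4, Npas4 and entry 3 of Egr2 had 2 cores each, and Nr4a1, Nr4a2 and Nr4a3 had 4 each. Over all 32851 windows of that length in the table, 17.8% held the core. The G and C content of the searched windows ran from 54.0% at entry 2 of Egr2 to 80.0% in Nr4a2, with 61.6% at entry 3 of Egr2. The whole CRE was in none of the members' windows and in 1.55% of all windows. A CArG box was in 4 of the 5 Egr2 windows, but the windows of entries 3, 4 and 5 overlap and hold the same box. Entry 2 held a different one. At entry 3 the box lay 72 to 63 bases before the start, between the cores. A CArG box was in 1.47% of all windows and in no window of the other 5 genes. These are matches of letters only.

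**Figure D1:**
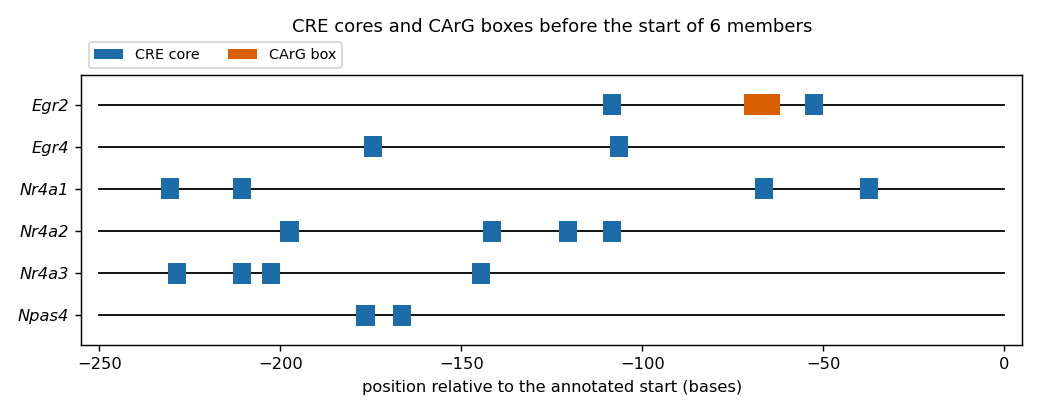
Positions of CRE cores (blue) and of the CArG box (orange) in the 250 bases before the annotated start, 1 line per gene, with entry 3 shown for Egr2. The horizontal axis is the distance to the start in bases. Nr4a1, Nr4a2 and Nr4a3 have 4 cores each, Egr2, Egr4 and Npas4 have 2, and the CArG box is on the Egr2 line alone.

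Levels were compared between genes as CPM per kilobase of exon. Arc was the most abundant member in all 4 groups and Egr2 the least. In vehicle mice at 6 h, Arc stood at 29.3 ± 3.02 CPM per kilobase (SD, n = 3). Nr4a1 at 13.8 ± 1.34, Egr3 at 13.5 ± 0.430, Egr1 at 12.97 ± 0.223 and Nr4a3 at 12.1 ± 1.69 CPM per kilobase lay within a narrow band, and neighbours in it did not differ beyond their SDs. Nr4a2 followed at 8.05 ± 1.02, Egr4 at 2.90 ± 0.205 and Npas4 at 2.77 ± 0.918 CPM per kilobase, where the last pair could not be told apart. Egr2 was at 0.192 ± 0.0916 CPM per kilobase, which rested on 13 to 35 counts a library. Dividing by the longest transcript instead widened the band from Nr4a1 to Nr4a3. It then held Nr4a1 at 18.9, Egr3 at 15.1, Egr1 at 12.97 and Nr4a3 at 12.7 CPM per kilobase. In stigmasterol mice at 1 h the order was Arc at 59.0 ± 38.7, Egr1 at 29.3 ± 13.7, Egr3 at 19.9 ± 3.45, Nr4a1 at 16.1 ± 5.22, Nr4a3 at 14.03 ± 1.39, Nr4a2 at 12.4 ± 3.03, Egr4 at 6.17 ± 2.03, Npas4 at 2.19 ± 0.778 and Egr2 at 0.818 ± 0.387 CPM per kilobase. There the SDs of most neighbours overlapped. No exon of a member overlapped an exon of another gene in the annotation.

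The first question was whether the 9 genes differed between stigmasterol and vehicle mice 1 h after the injection. Egr1 to Egr4, Nr4a1, Nr4a2, Npas4 and Arc were higher on average in stigmasterol mice and Nr4a3 was level, but none of the 9 passed the test. The stigmasterol mice also differed widely among themselves. Replicate 1 was above every vehicle library at 1 h for all 9 members, replicate 8 for 8, and replicate 11 for 1. For 5 members replicate 11 was below every vehicle library. The share of all genes with such an order in a single library was not computed, so these counts only describe the libraries.

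Egr4 (chr6:85511121-85513589, minus strand), the family member with the shortest transcript, had the largest relative difference of the 9 with all libraries in the fit, though not under every setting given below. Its levels were 13.4, 8.83 and 17.5 CPM in stigmasterol replicates 1, 11 and 8, against 6.39, 6.06 and 6.61 CPM in vehicle replicates 4, 5 and 9. Every stigmasterol library lay above every vehicle library, the only member for which this held at 1 h. Its log2 fold change was 1.06 ± 0.24 (SE, n = 3 each), a 2.09-fold difference, with an adjusted p = 0.534 in edgeR's quasi-likelihood test (unadjusted p = 0.000639).

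Egr1 (chr18:34859823-34864984, plus strand), also called Zif268 and a common marker of synaptic plasticity, was at 128, 72.1 and 194 CPM in stigmasterol replicates 1, 11 and 8, against 90.3, 79.5 and 82.8 CPM in vehicle replicates 4, 5 and 9. Replicates 1 and 8 were above all vehicle libraries and replicate 11 was below all of them. The log2 fold change was 0.64 ± 0.23 (SE), with an edgeR adjusted p = 0.649. Egr3 (chr14:70077203-70082614, plus strand), needed for the development of muscle spindles, was at 87.3, 72.4 and 103 CPM in stigmasterol mice, against 67.9, 76.5 and 76.7 CPM in vehicle mice, and replicate 11 fell among the vehicle libraries. Its log2 fold change was 0.25 ± 0.11 (SE), with an edgeR adjusted p = 0.663. Egr2 (chr10:67535475-67542188, plus strand), also known as Krox20 and required for myelination by Schwann cells, had only 23 to 146 counts a library at 1 h. It was at 3.36, 1.27 and 3.70 CPM in stigmasterol mice, against 2.43, 1.27 and 0.701 CPM in vehicle mice, with overlapping groups and a log2 fold change of 0.92 ± 0.45 (SE; edgeR adjusted p = 0.678). Leaving out vehicle replicate 4 took the Egr2 value to 1.51, and leaving out vehicle replicate 9 took it to 0.58.

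Arc (chr15:74669083-74672570, minus strand), whose RNA travels into dendrites, had the widest range of the 9 among the 3 stigmasterol libraries at 1 h. It was at 170, 67.7 and 304 CPM in stigmasterol replicates 1, 11 and 8, a 4.49-fold range (Egr2 was next, at 2.90-fold), against 156, 95.6 and 82.4 CPM in vehicle replicates 4, 5 and 9. Stigmasterol replicate 11 was the lowest of the 6 libraries and replicate 8 the highest, and vehicle replicate 4 was close to stigmasterol replicate 1. The log2 fold change was 0.70 ± 0.38 (SE), with an edgeR adjusted p = 0.692.

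Among the nuclear receptors, Nr4a1 (chr15:101254269-101274795, plus strand), also called Nur77, was at 66.5, 35.4 and 67.8 CPM in stigmasterol mice, against 55.4, 39.2 and 40.7 CPM in vehicle mice. Nr4a2 (chr2:57106830-57124003, minus strand), also called Nurr1 and known for its role in midbrain dopamine neurons, was at 51.6, 37.6 and 62.1 CPM in stigmasterol mice, against 49.2, 37.8 and 43.7 CPM in vehicle mice. In both genes 2 stigmasterol libraries were above the vehicle range and replicate 11 was below it, and the log2 fold changes were 0.33 ± 0.20 for Nr4a1 and 0.21 ± 0.19 for Nr4a2 (SE; edgeR adjusted p = 0.708 and 0.788). Nr4a3 (chr4:48045153-48086447, plus strand), also called Nor1, did not share this order: it was at 89.7, 87.8 and 74.4 CPM in stigmasterol mice, against 88.5, 88.6 and 78.5 CPM in vehicle mice. Replicate 8, the highest library for the other 8 members, was here the lowest of all 6. The log2 fold change of Nr4a3 was -0.02 ± 0.11 (SE; edgeR adjusted p = 0.970), with the spread between its libraries larger than the difference.

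Npas4 (chr19:4984355-4990316, minus strand), found mainly in neurons, was at 8.93, 5.92 and 12.4 CPM in stigmasterol mice, against 8.35, 6.41 and 6.64 CPM in vehicle mice. Its groups overlapped, with replicate 11 again at the bottom, and the log2 fold change was 0.35 ± 0.29 (SE; edgeR adjusted p = 0.768).

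**Figure D2:**
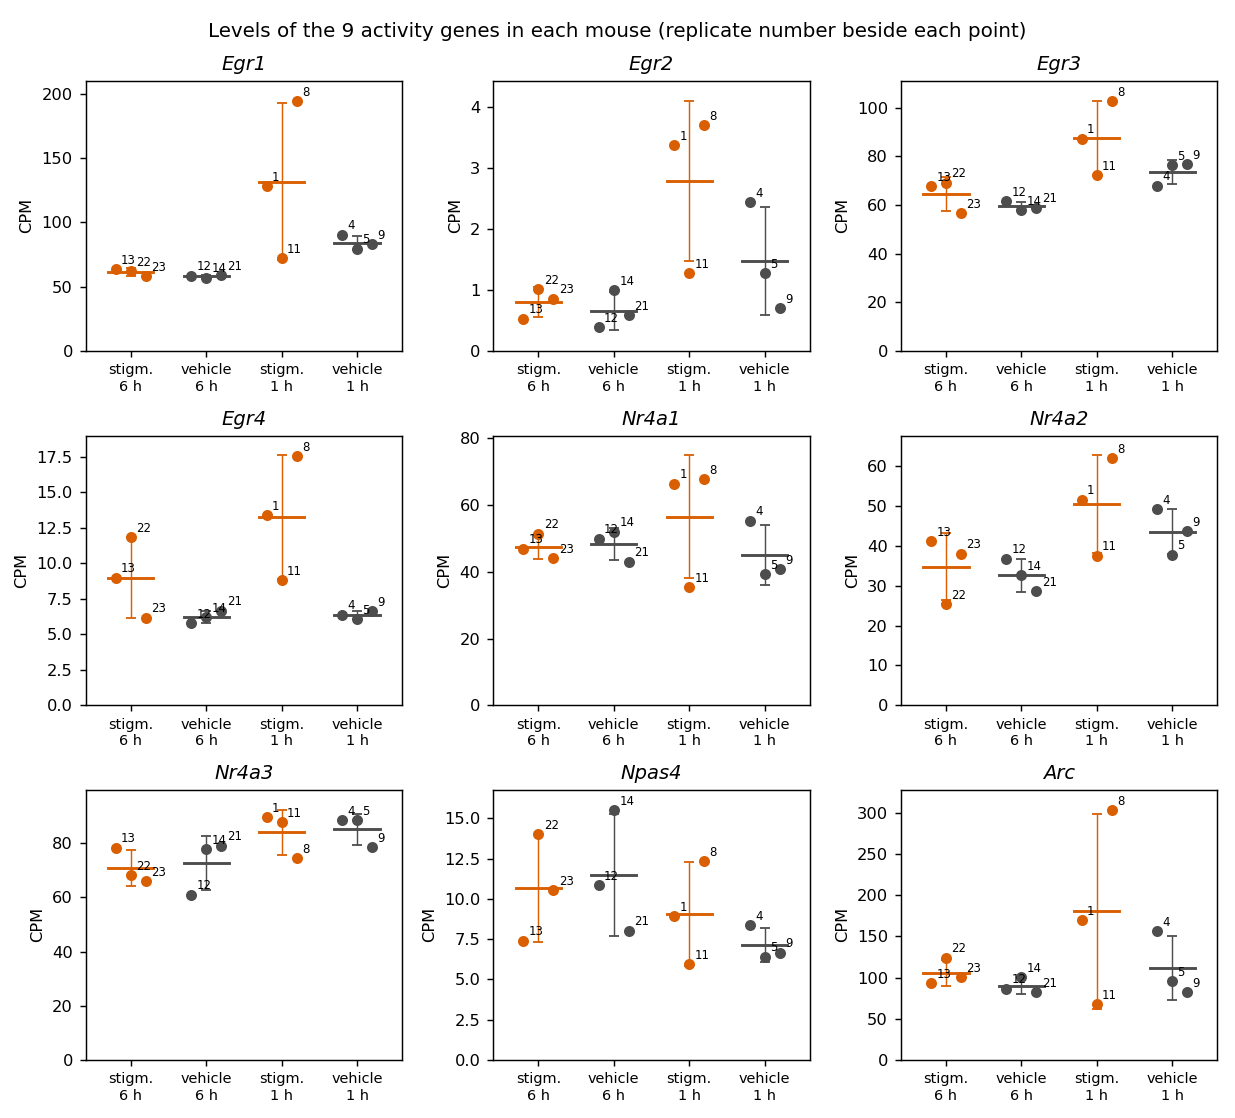
CPM of each of the 9 genes (vertical axes, each from 0) in each library by group, with the replicate number beside each point, and group means and SDs as lines and bars (n = 3). In stigmasterol mice at 1 h the Egr1 points run from 72.1 to 194 CPM and the Arc points from 67.7 to 304 CPM, while Nr4a3 stays between 61.0 and 89.7 CPM in all 12 libraries.

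At 1 h, 0 of the 9 members were called at an adjusted p below 0.05, where 0% of the 18382 genes tested were called. With an unadjusted p below 0.05 there were 3 members (Egr1, Egr3 and Egr4), against 7.52% of all genes. The 1 member whose stigmasterol libraries were all higher, Egr4, compares with 8.23% of all genes. The fold changes of 8 of the 9 were above 0, with a median of 0.35, whereas 49.6% of all genes were above 0, with a median of -0.0013. DESeq2's Wald test called 1 member, Egr4 (adjusted p = 0.0134), and 20 of the 17769 genes to which it gave an adjusted p.

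Single libraries set much of the size at 1 h. Replicate 8 was the highest stigmasterol library at 1 h for 8 of the 9 members and replicate 11 the lowest for 8. Without replicate 8, the log2 fold change of Egr1 was 0.25, that of Arc 0.09, that of Npas4 0.06 and that of Nr4a2 0.03, whereas that of Egr4 was 0.81. Without replicate 11, Egr1 was at 0.95, Arc at 1.103 and Egr4 at 1.30. Without vehicle replicate 4, Arc was at 1.02 and Nr4a1 at 0.50. Replicate 8 is the library with the high striatum and cortical layer markers named above. Its 10 oligodendrocyte markers summed to 14377 CPM, against 6027 to 10912 CPM in the other 11 libraries. In the 1 h comparison 10 of 10 oligodendrocyte markers were above 0, 6 of them with an unadjusted p below 0.05, as were 11 of 11 meningeal fibroblast markers (5), 12 of 12 striatum markers (7) and 15 of 15 choroid plexus markers (1). Dentate granule cell markers were below 0 for 11 of 12, 4 of them with an unadjusted p below 0.05. None of these markers was called. With the striatum markers' mean log2 CPM as a covariate, the log2 fold change was 0.19 for Egr1, -0.0048 for Arc, -0.01 for Npas4 and 0.74 for Egr4. With the choroid plexus markers instead, Egr4 was at 0.94, below Egr2 at 1.30. Replicate 1 had 447 CPM of striatum and 298 CPM of cortical layer markers. Its mean log2 CPM of striatum markers was 3.27, against 3.135 to 3.155 in the vehicle libraries at 1 h. Its meningeal fibroblast markers summed to 149 CPM, against 108 to 116 CPM in those libraries. Its choroid plexus markers were at 3038 CPM, against 229 to 4402 CPM there. Replicate 1 was above all vehicle libraries at 1 h for all 9 members, though for Nr4a3 at 89.7 CPM against at most 88.6 CPM. No share of all genes was computed to set beside that count. The part of the markers in the members' differences was not tested beyond these covariates and a cortical one. A library's slope of expression on GC content also differed: per 10 percentage points, replicate 8 was at 0.178 on the log2 scale, stigmasterol replicates 1 and 11 at -0.0813 and -0.0660, and vehicle replicates 4, 5 and 9 at -0.145, -0.0875 and -0.116. Egr4, at 68.2%, has the highest GC content of the 9 transcripts, and Nr4a2, at 47.9%, the lowest. With each library's trend on GC content and length removed, the log2 fold change of Egr4 was 0.62 at 1 h, below that of Egr2 at 0.88, and that of Egr1 was 0.51.

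**Figure D3:**
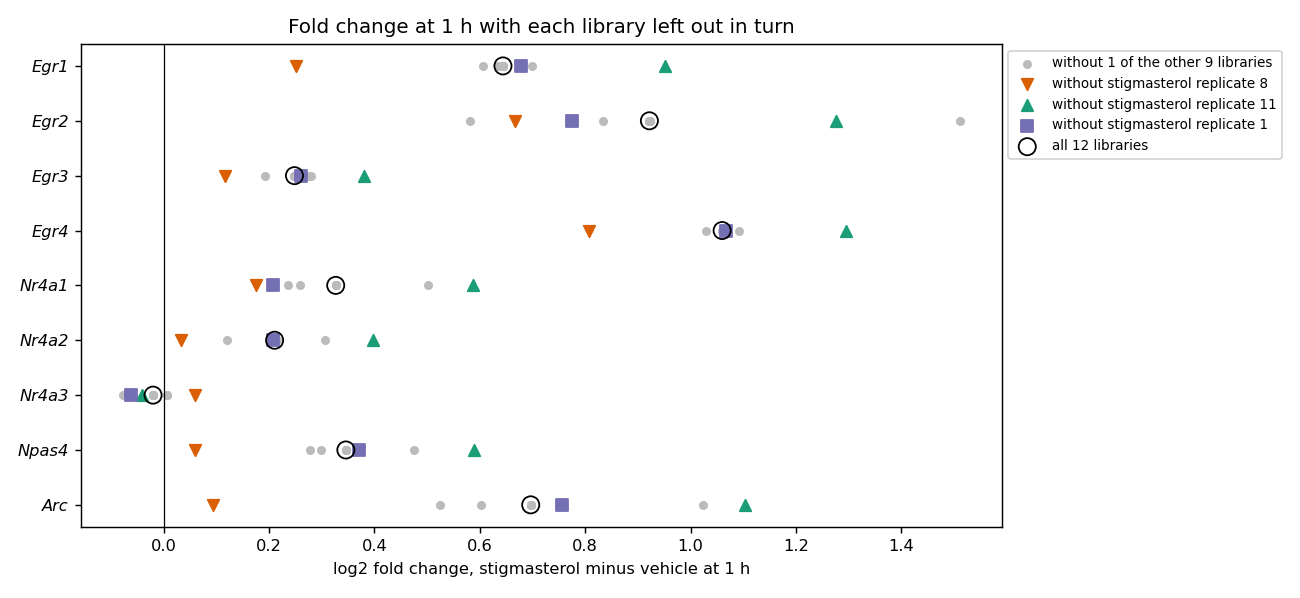
Log2 fold change, stigmasterol minus vehicle at 1 h (horizontal axis), of each gene with all 12 libraries (open circles) and with each library left out in turn (filled marks, with the stigmasterol libraries at 1 h coloured). Without replicate 8 (orange triangles) Arc lies at 0.09 and Egr1 at 0.25, and Egr4 remains at 0.81.

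At 6 h the same comparison gave small differences and overlapping groups for all 9 members. Egr1 was at 63.7, 61.8 and 58.1 CPM in stigmasterol replicates 13, 22 and 23, against 58.6, 57.0 and 58.8 CPM in vehicle replicates 12, 14 and 21. Egr1 was thus close to level in all 6 libraries, within a 1.12-fold range. Arc was at 92.8, 124 and 100.1 CPM in stigmasterol mice, against 86.5, 100.1 and 82.5 CPM in vehicle mice. Egr4 again had the largest relative difference in the fit of all libraries, at 8.98, 11.9 and 6.17 CPM in stigmasterol mice, against 5.79, 6.20 and 6.67 CPM in vehicle mice. Here 2 of the 3 stigmasterol libraries were above the vehicle range and replicate 23 was inside it, and the log2 fold change was 0.53 ± 0.24 (SE; edgeR unadjusted p = 0.0453, adjusted p = 1.00). Without stigmasterol replicate 22 it was 0.29, and with the GC and length trend removed it was 0.20, below that of Egr2 at 0.24.

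The remaining members did not separate either. Npas4 was at 7.40, 14.005 and 10.55 CPM in stigmasterol mice, against 10.8, 15.5 and 8.01 CPM in vehicle mice. Nr4a2 was at 41.2, 25.3 and 38.0 CPM in stigmasterol mice, against 36.8, 32.6 and 28.6 CPM in vehicle mice. Nr4a1 and Nr4a3 had log2 fold changes of -0.03 ± 0.20 and -0.04 ± 0.11 (SE). The other log2 fold changes were 0.07 for Egr1, 0.26 for Egr2, 0.12 for Egr3, 0.09 for Nr4a2, -0.11 for Npas4 and 0.24 for Arc, and the adjusted p was 1.00 in edgeR for all 9. None of the 9 members, and 0% of all genes, were called at 6 h. Of the 9, only Egr4 had an unadjusted p below 0.05, against 4.1% of all genes, and no member had every stigmasterol library higher, against 3.47% of all genes. DESeq2 called 0 members at 6 h and 2 of 21525 genes. Choroid plexus markers were above 0 at 6 h for 0 of 15, with a median of -0.39, and meningeal fibroblast markers for 2 of 11, with a median of -0.19. Oligodendrocyte markers were above 0 for 10 of 10, with a median of 0.25. Striatum markers were above 0 for 7 of 12 and dentate granule cell markers for 6 of 12.

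Averaged over both times, the log2 fold change of Egr4 was 0.80 ± 0.17 (SE), a 1.74-fold difference, with an edgeR adjusted p = 0.193. Egr3 was at 0.18 ± 0.08, Egr1 at 0.36 ± 0.17 and Arc at 0.47 ± 0.27 (SE; edgeR adjusted p = 0.525, 0.544 and 0.623). Without stigmasterol replicate 8 at 1 h these were 0.12 for Egr3, 0.16 for Egr1 and 0.16 for Arc, and Egr4 was at 0.67. With the GC and length trend removed Egr4 was at 0.41. Striatum markers were above 0 for 11 of 12, with a median of 0.51, and choroid plexus markers for 15 of 15, with a median of 0.53. Meningeal fibroblast markers were above 0 for 11 of 11, with a median of 0.23. So were 10 of 10 oligodendrocyte markers, with a median of 0.36, 5 of them with an unadjusted p below 0.05. Dentate granule cell markers were above 0 for 1 of 12, with a median of -0.12. In this average 0 members and 0% of all genes were called, and 2 members, Egr3 and Egr4, had an unadjusted p below 0.05, against 9.17% of all genes. DESeq2 called Egr4 (adjusted p = 0.00207), 1 of 91 genes called among 16518. In edgeR it was called when stigmasterol replicate 23 at 6 h was left out (adjusted p = 0.0442), as 1 of 26 genes among 18708. Its adjusted p was above the threshold in edgeR without any other single library. The difference between the treatment effects, 6 h minus 1 h, was above 0 for 49.0% of all genes. It was below 0 for all 9 members, from -0.02 ± 0.16 for Nr4a3 to -0.66 ± 0.72 for Egr2 (SE). None was called, as for 0% of all genes, and 0 members had an unadjusted p below 0.05, against 2.31% of all genes, so an effect that differs between the times was not detectable here with 3 mice a group.

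The second question was how the genes differed with time after the injection. In vehicle mice, Egr1, Egr3 and Nr4a2 were lower in every library at 6 h than in any library at 1 h, and Npas4 went the other way, with a higher mean at 6 h. No member passed the test. Egr1 was at 58.6, 57.0 and 58.8 CPM in vehicle mice at 6 h, against 90.3, 79.5 and 82.8 CPM in vehicle mice at 1 h, with a log2 fold change of -0.53 ± 0.24 (SE; edgeR adjusted p = 0.217). Egr3 was at 61.6, 58.0 and 58.8 CPM at 6 h, against 67.9, 76.5 and 76.7 CPM at 1 h, with a log2 fold change of -0.31 ± 0.11 (SE; edgeR adjusted p = 0.156). These groups did not overlap.

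Nr4a2 averaged 32.7 ± 4.13 CPM at 6 h and 43.6 ± 5.67 CPM at 1 h in vehicle mice (SD, n = 3 each), again without overlap, and its log2 fold change was -0.42 ± 0.19 (SE; edgeR adjusted p = 0.238). Npas4 averaged 11.5 ± 3.80 CPM at 6 h and 7.13 ± 1.06 CPM at 1 h (SD, n = 3 each), with a log2 fold change of 0.69 ± 0.29 (SE; edgeR adjusted p = 0.202), and vehicle replicate 21 at 6 h lay inside the 1 h range. Egr2 had a log2 fold change of -1.15 ± 0.52 on few counts, and Nr4a3 of -0.23 ± 0.11 (SE). Egr4, Nr4a1 and Arc differed by less than their SE, at -0.03 ± 0.24, 0.10 ± 0.20 and -0.31 ± 0.38 (SE). In vehicle mice 0 of 9 members were called, against 0.675% of all genes. An unadjusted p below 0.05 was found for 4 members, 3 lower (Egr1, Egr2 and Egr3) and 1 higher (Npas4), against 21.2% of all genes. The 3 members with every 6 h library lower compare with 17.4% of all genes. With only the vehicle libraries in the fit, edgeR called Egr1, Egr3 and Nr4a2 lower (adjusted p = 0.00532, 0.0237 and 0.0478), together with 1771 of 17822 genes in either direction. In the same mice choroid plexus markers were higher at 6 h for 15 of 15 genes, with a median log2 fold change of 1.18, and meningeal fibroblast markers for 10 of 11, with a median of 0.53. Dentate granule cell markers were higher for only 4 of 12, with a median of -0.19. Of these, 2 higher and 2 lower had an unadjusted p below 0.05. CA1 markers were higher for 4 of 8, with a median of -0.0023, and CA3 and CA2 markers for 4 of 10, with a median of -0.07. With the choroid plexus markers as a covariate, Nr4a2 was at -0.145, Egr1 at -0.45 and Egr3 at -0.37. Without vehicle replicate 4 at 1 h, Egr2 was at -0.56.

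In stigmasterol mice, 8 of the 9 members were lower on average at 6 h than at 1 h, and Npas4 alone was higher. Egr1 averaged 61.2 ± 2.86 CPM at 6 h and 132 ± 61.2 CPM at 1 h (SD, n = 3 each), with a log2 fold change of -1.104 ± 0.24 (SE; edgeR adjusted p = 0.177). Egr2 averaged 0.794 ± 0.244 CPM at 6 h and 2.78 ± 1.31 CPM at 1 h (SD, n = 3 each), with a log2 fold change of -1.81 ± 0.48 (SE; edgeR adjusted p = 0.289). Egr3 averaged 64.5 ± 6.87 CPM at 6 h and 87.5 ± 15.2 CPM at 1 h (SD, n = 3 each), with a log2 fold change of -0.44 ± 0.11 (SE; edgeR adjusted p = 0.280). For these 3 genes every 6 h library was below every 1 h library, replicate 11 included, against 6.61% of all genes with that order. Markers on several lists were lower in the same comparison: 11 of 12 for striatum, with a median of -0.59, and 15 of 15 for choroid plexus, with a median of -0.72. So were 10 of 10 for oligodendrocytes, with a median of -0.15, and 9 of 12 for cortical layers, with a median of -0.17. Meningeal fibroblast markers were lower for all but 1 of 11, with a median of -0.28. Dentate granule cell markers were higher for 8 of 12, with a median of 0.10. None of these was called. With the striatum markers as a covariate, Egr1 was at -0.79, Egr2 at -1.62, Egr3 at -0.33 and Arc at -0.29.

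Arc, at -0.77 ± 0.38, Egr4, at -0.56 ± 0.23, and Nr4a2, at -0.53 ± 0.19, had larger log2 differences than Egr3, but with overlapping groups (SE; edgeR adjusted p = 0.525, 0.463 and 0.404). Nr4a1 and Nr4a3 were at -0.25 ± 0.20 and -0.25 ± 0.11, and Npas4 at 0.23 ± 0.29 (SE). In stigmasterol mice 0 members were called, against 0.00544% of all genes, which is 1 gene. Of the 9, 6 had an unadjusted p below 0.05, all lower, against 9.99% of all genes. DESeq2 called Egr1 and Egr2 lower (adjusted p = 0.0219 and 0.0367), 2 of 91 genes called among 15683. In edgeR, Egr1 was called lower when stigmasterol replicate 11 at 1 h was left out (log2 fold change of -1.402, adjusted p = 0.00291), as 1 of 2 genes among 18632. Without stigmasterol replicate 8 at 1 h, the value of Egr1 was smaller, at -0.71 (edgeR adjusted p = 0.291), and Arc was at -0.17, Egr4 at -0.31 and Nr4a1 at -0.10.

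Over both treatments, as a description, Egr1 was the 1 member whose 6 libraries at 6 h, from 57.0 to 63.7 CPM, were all below its 6 libraries at 1 h, from 72.1 to 194 CPM, an order found for 2.42% of all genes. The clock time of dissection is not given, so time after injection and time of day cannot be told apart.

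**Figure D4:**
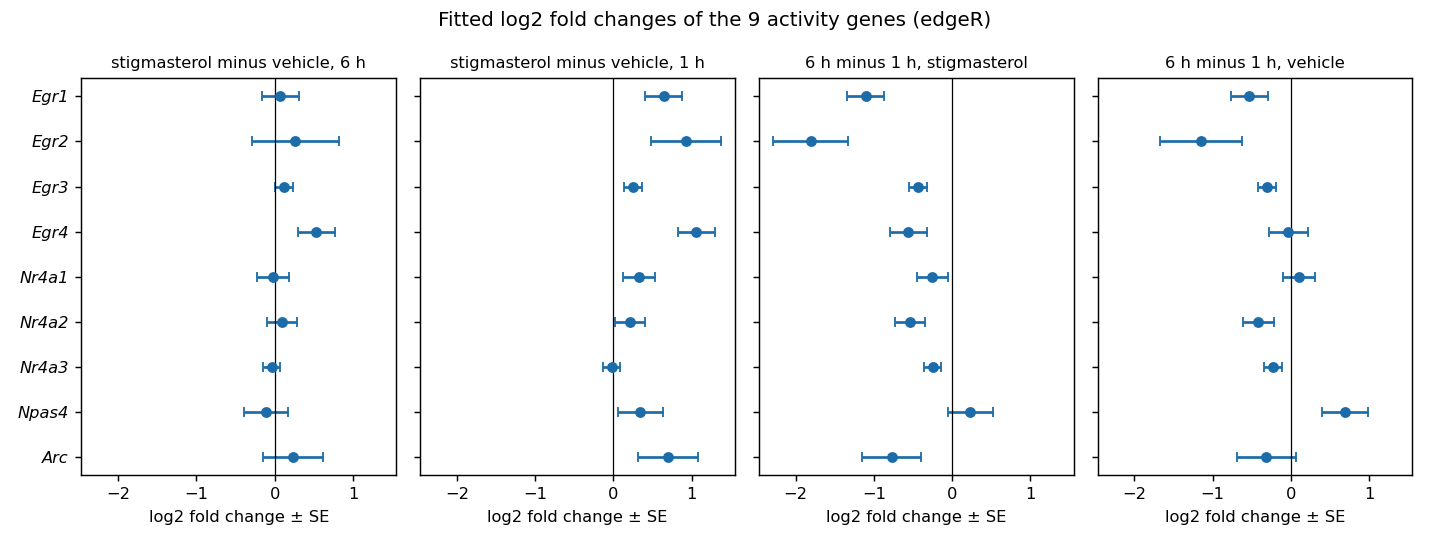
Log2 fold changes (points) and SE (bars) of the 9 genes in edgeR for 4 comparisons, from left: stigmasterol minus vehicle at 6 h, the same at 1 h, 6 h minus 1 h in stigmasterol mice, and 6 h minus 1 h in vehicle mice. At 1 h Egr4 lies at 1.06, and Npas4 is to the right of 0 in both comparisons of time while Egr1, Egr2 and Egr3 are to the left.

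The members varied together across libraries to different degrees. Of their 36 pairs, 31 had a positive Pearson's r over the 12 libraries and 19 had r of at least 0.6, with a median of 0.61. Egr1 was closest to Egr3 (r = 0.93) and Nr4a1 to Arc (r = 0.88). Nr4a3 and Npas4 were opposed (r = -0.58). Spearman's rho, which uses ranks, was lower for some pairs, such as Egr1 and Arc (0.37 against r = 0.83). It was also lower for Egr3 and Arc (0.24 against 0.68), and higher for Nr4a1 and Npas4 (0.75 against 0.61). These libraries share the 4 groups, so deviations from the group means were also correlated: 29 of 36 pairs were then positive, with a median of 0.56. Arc then had r = 0.92 with Egr1 and 0.92 with Nr4a1, and Npas4, which had r = -0.01 with Egr1 across all libraries, had r = 0.59. In these deviations Nr4a3 was negatively correlated with 7 of the other 8 members. On the mean of the members' standardised log2 CPM, replicate 8 was at 1.66, replicate 1 was next, replicate 11 was at -0.33, vehicle replicate 4 at 1 h at 0.42, and the other 8 libraries between -0.67 and -0.08.

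**Figure D5:**
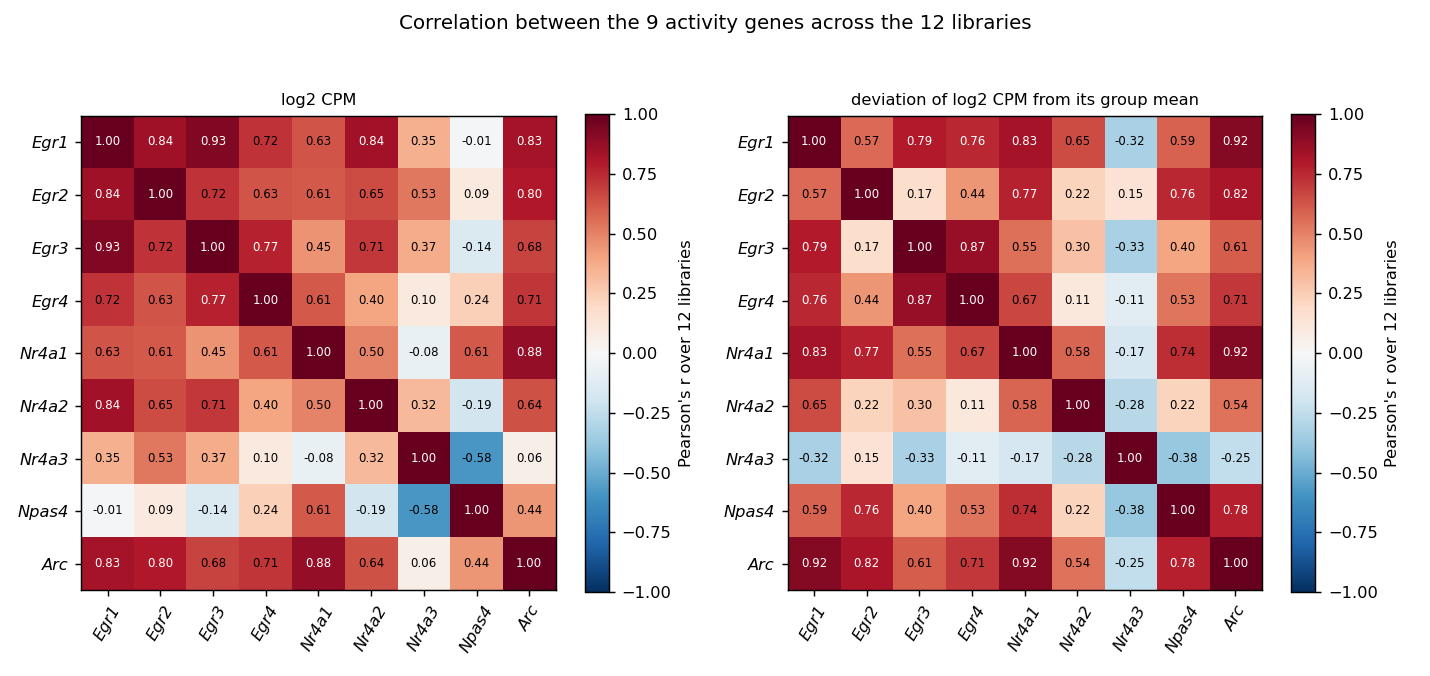
Pearson's r between the 9 genes over the 12 libraries, from log2 CPM (left) and from deviations of log2 CPM from the group mean (right), with red for positive and blue for negative values. On the left Nr4a3 is positive with Egr2 (0.53), Egr3 (0.37), Egr1 (0.355) and Nr4a2 (0.32) and negative with Npas4 (-0.58). It lies between -0.08 and 0.10 with Egr4, Nr4a1 and Arc. On the right Nr4a3 is negative with every gene but Egr2 (0.15). Npas4 is pale or blue against the Egr genes on the left (-0.01 with Egr1) and red on the right (0.59).

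The search for likeness covered 13617 tested genes with a mean of 1 CPM or more, without those named only by a Gm number or a Rik clone. Outside the 9, the 10 with the highest r with that mean over the 12 libraries were Jmjd6 (0.90), Fos (0.89), Ccl27a (0.89), Nudt3, Dnajb5, Ptpn1, Chrm4, Siah2, Trib2 and Pdlim1 (0.86). Spearman's rho with that mean was lower for all 10, from 0.56 for Trib2 to 0.86 for Fos. Fos, the AP-1 subunit used most often to mark active neurons, was at 12.6, 5.87 and 16.9 CPM in stigmasterol replicates 1, 11 and 8 at 1 h, against 10.7, 8.07 and 5.82 CPM in vehicle replicates 4, 5 and 9, the same order of the stigmasterol libraries as Egr1 and Arc had. For single members the nearest gene was Siah2 for Egr1 (0.95), Fos for Egr2 (0.96), Rara for Egr3 (0.96), Irf2bp2 for Egr4 (0.92), Arc for Nr4a1 (0.88), Vxn for Nr4a2 (0.96), Lmo4 for Nr4a3 (0.90), Wdr90 for Npas4 (0.91) and Ccl27a for Arc (0.91). These are the extremes of 13617 genes over 12 libraries that share groups, and are given as a description.

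Other activity genes were read from lists, which were chosen with earlier results of these data known. Of 39 other immediate early genes, 0 were called at 1 h, 34 had a fold change above 0 with a median of 0.22, and 11 had an unadjusted p below 0.05, all higher. Of all genes, 49.6% were above 0 and 7.52% had an unadjusted p below 0.05 in either direction. The list's mean log2 CPM was 3.89, 3.72 and 4.09 in stigmasterol replicates 1, 11 and 8 at 1 h. It was 3.62 to 3.64 in the vehicle libraries at 1 h. Settings other than the main fit were not read for this list. Junb, an AP-1 subunit, averaged 29.4 ± 6.30 CPM in stigmasterol mice and 18.3 ± 2.64 CPM in vehicle mice at 1 h (SD, n = 3 each), with a log2 fold change of 0.68 ± 0.19 (SE; edgeR adjusted p = 0.649). Jund, the AP-1 subunit with steady expression, was at 0.87 ± 0.15 (SE; edgeR adjusted p = 0.441) at 1 h and 0.76 ± 0.15 at 6 h, and its mean over both times, 0.82 ± 0.11, had the adjusted p nearest the threshold on this list (0.0648). At 6 h, 30 of the 39 were above 0 with a median of 0.12, against 50.05% of all genes above 0, and 0 of the 39 were called. Fos had log2 fold changes of 0.52 ± 0.37 at 1 h and 0.06 ± 0.39 at 6 h (SE).

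With time in vehicle mice, 2 of the 39 were called, against 0.675% of all genes. Amigo3, an adhesion molecule gene, rose by 0.55 ± 0.10 on the log2 scale, and Nfil3, a transcriptional repressor with daily rhythms in many tissues, fell by 0.65 ± 0.13 (SE; edgeR adjusted p = 0.0394 and 0.0432). Fos was at -0.89 ± 0.39 in vehicle mice (SE; edgeR adjusted p = 0.211). In stigmasterol mice 0 of the 39 were called between the times, with Fosb at -1.02 ± 0.18 (SE; edgeR adjusted p = 0.0941) and Fos at -1.35 ± 0.38.

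Many genes listed as delayed activity genes need new transcription factors for part of their induction. That was not tested for any of them here, Homer1 and Bdnf included. Above 0 were 16 of 28 at 1 h and 18 of 28 at 6 h, each with a median of 0.02, and 0 were called. At 1 h, 3 had an unadjusted p below 0.05, all higher, against 7.52% of all genes in either direction. Vgf, with the smallest p, was at 104, 115 and 147 CPM in stigmasterol mice at 1 h, against 69.1, 95.1 and 91.3 CPM in vehicle mice. Its log2 fold change was 0.52 ± 0.18 (SE; edgeR adjusted p = 0.649). Penk, the enkephalin precursor and abundant in the striatum, was at 88.9 CPM in stigmasterol replicate 8 and at 19.4 and 17.0 CPM in replicates 1 and 11, against 15.4 to 19.97 CPM in vehicle mice at 1 h. Bdnf, a neurotrophin, averaged 28.7 ± 2.03 CPM in stigmasterol mice and 30.9 ± 3.00 CPM in vehicle mice at 1 h (SD, n = 3 each), with a log2 fold change of -0.10 ± 0.09 (SE; edgeR adjusted p = 0.789). With time in vehicle mice, 52.0% of all genes were higher and 0.675% were called. Of the 28, 21 were lower there, with a median of -0.21, and Homer1, a postsynaptic scaffold gene, was the 1 called. Homer1 fell to 65.1 ± 4.23 CPM at 6 h, against 99.7 ± 3.32 CPM at 1 h in vehicle mice (SD, n = 3 each), a log2 fold change of -0.62 ± 0.11 (SE; edgeR adjusted p = 0.0312). In stigmasterol mice it was at -0.63 ± 0.11 (SE; edgeR adjusted p = 0.0853).

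Genes of the members' partners gave 0 calls in every comparison. These were 7 partners of Egr, Nr4a and Npas4 proteins, 16 factors that act on promoters of this kind and 9 partners of the Arc protein. Nab2, a corepressor of Egr1 and itself an Egr target, was at 26.6, 25.0 and 33.2 CPM in stigmasterol replicates 1, 11 and 8 at 1 h, against 23.7, 26.2 and 23.2 CPM in vehicle replicates 4, 5 and 9. Its log2 fold change was 0.21 ± 0.11 (SE; edgeR adjusted p = 0.684). Arnt, a dimer partner of Npas4, was at -0.18 ± 0.06 over both times, and Crebbp, a coactivator of CREB, at -0.13 ± 0.05 (SE; edgeR adjusted p = 0.394 and 0.448). Grin2b, an NMDA receptor subunit, was at -0.26 ± 0.11 at 1 h (SE; edgeR adjusted p = 0.655).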

How the data were processed

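RNA was measured in 12 hippocampal libraries made from total RNA with the TruSeq mRNA kit, per the labels' protocols, with a RIN of 7 or more. Whether counting used strand was not given in the sources used here. The submitters' processing notes list STAR 2.4.2a, build GRCm38 and HTSeq 0.6.1p1 besides bcl2fastq 2.17.1.14, cutadapt, DESeq and DESeq2 1.10.1, in no stated order. The authors' raw table gives whole-number counts of reads for each gene. Their second deposited table is signal, these counts over 1 size factor per library, and was used in 1 alternative. Groups and replicate numbers came from the sample titles.

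Counts were tested in R 4.3.3 with edgeR 4.0.16: filterByExpr kept 18382 genes, libraries were scaled by TMM, and 1 quasi-likelihood model with a mean for each group took in all 12 libraries, with Benjamini-Hochberg adjustment over all genes tested and a threshold of 0.05. An SE is the log2 fold change over the square root of the F statistic. Levels per kilobase used the union of exons in GENCODE M21, which matched 21501 of 21532 genes. The procedure was tested on simulated data. Alternatives were other scalings and filters, DESeq2 1.42.0, limma 3.58.1, covariates and libraries left out.

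The members and gene lists were chosen with earlier results of these data known. Named were the 9 members, Fos, Junb, Bdnf and Homer1, up to 4 genes of each list with the smallest p in a comparison, and the genes most correlated with the members. Total counts lay between 27613253 and 42043875. The labels describe 1 mouse per sample, and the tests set differences between groups against the spread between samples within groups.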

Additional observations from a re-analysis of the deposited data

How the results depend on the processing

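In the other settings, 705 of 732 single-gene results kept their direction and their side of the threshold, 8 came to pass it and 19 turned direction. These settings include a looser threshold of 0.1 on the same fit, where no direction could turn. The stricter filter, with a mean of at least 2 CPM, gave no value for Egr2. As no member passed in the main fit, keeping the side of the threshold meant staying uncalled. With 1 library left out, 614 of 648 kept both, 2 came to pass it and 32 turned. The cause of the changes was not tested.

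The number of members called was 0 in every comparison and became 1 (stigmasterol minus vehicle at 1 h), 1 (mean of both times) and 2 (6 h minus 1 h in stigmasterol mice) with DESeq2's Wald test, 3 with only the vehicle libraries in the fit for time in vehicle mice, and 1 there with cortical layer markers as a covariate, which was chosen after seeing the data (Egr1, adjusted p = 0.0466). With 1 library left out it ranged from 0 to 1 for the mean of both times and for time in stigmasterol mice, and stayed at 0 in the other comparisons. With the cortical covariate, 310 of 18382 genes were called for time in vehicle mice, against 124 in the main fit. Fitting only the groups compared gives no value for the mean of both times or the difference of the effects. No paired analysis was possible because the groups share no replicate number.

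These log2 fold changes turned direction. With the striatum covariate: at 1 h Nr4a3 0.10, Npas4 -0.013 and Arc -0.0048, at 6 h Egr1 -0.015, in the mean Nr4a3 0.047 and Npas4 -0.11, and in the difference of the effects Nr4a2 0.026 and Arc 0.096. With the cortical covariate: Nr4a3 0.042 at 1 h, and in the difference of the effects Egr3 0.016, Nr4a2 0.10 and Arc 0.20. With the choroid plexus covariate: Nr4a2 -0.00082 at 6 h and Nr4a3 0.012 in the difference of the effects. With the GC and length trend removed: Nr4a3 0.0087 in that difference and Nr4a1 -0.024 for time in vehicle mice. Without vehicle replicates 4 and 9 at 1 h: Nr4a3 0.044 in that difference and Egr4 0.041 for time in vehicle mice. With upper-quartile factors: Egr4 0.0087 for time in vehicle mice.

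With 1 library left out, the ranges that cross 0 were, for Nr4a3, -0.077 to 0.059 at 1 h, -0.15 to 0.029 at 6 h, -0.084 to 0.011 in the mean and -0.13 to 0.050 in the difference of the effects. At 6 h they were -0.014 to 0.73 for Egr2, -0.10 to 0.031 for Nr4a1, -0.045 to 0.28 for Nr4a2 and -0.36 to 0.17 for Npas4. In the mean Npas4 ranged from -0.026 to 0.26. In the difference of the effects Egr3 ranged from -0.26 to 0.0019, Nr4a2 from -0.30 to 0.066 and Arc from -0.86 to 0.14. With time in vehicle mice Egr4 ranged from -0.085 to 0.016 and Arc from -0.48 to 0.016, and in stigmasterol mice Npas4 ranged from -0.016 to 0.52. By the longest transcript, Nr4a1 in vehicle mice at 6 h was at 18.9 CPM per kilobase, Egr3 at 15.1 and Nr4a2 at 9.16. Counts per library limit Egr2 most.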
